A study of Mus musculus with 18 samples.

Results

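Described here are 35 mouse genes that code for glucose uptake, glycolysis and lactate handling, or that respond to low oxygen, in bone marrow-derived macrophages with and without the transcription factor Klf3. The genes were chosen by name, and a gene counted as measured where the array carries a probe set (a group of short probes read as 1 value) annotated to that gene symbol and no other. By this rule 31 of the 35 members were measured, among 17097 measured genes in all. Gpi1, Pgam1, Eno1 and P4ha1 had no such probe set and have no value. Where a gene had several probe sets, the brightest on average represented it.

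Glycolysis splits glucose into pyruvate, and macrophages that meet bacterial lipopolysaccharide (LPS) are known to take up more glucose and to turn more of the pyruvate into lactate. Many genes of the pathway are known targets of HIF-1, a transcription factor whose alpha subunit, Hif1a, is marked for destruction by oxygen-dependent prolyl hydroxylases (the Egln proteins) and is made in larger amounts after LPS. Klf3 belongs to the Krüppel-like factors and is known mainly as a repressor of transcription.

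The data are 18 Affymetrix HT MG-430PM arrays, 3 for each of 6 groups, and the study compared Klf3 knockout with wild-type cells and LPS with vehicle. All cells came from male FVB/NJ mice 10 to 14 weeks old and grew for 7 to 10 days in medium with 20% L929-conditioned medium, the source of the growth factor M-CSF, which was washed off before treatment. The groups are Klf3 knockout (KO) cells after 8 h with 100 ng/mL LPS, wild-type (WT) cells after 8 h with 100 ng/mL LPS, KO and WT cells after 8 h with vehicle (PBS), and untreated KO and WT cells harvested at 0 h. How the Klf3 allele was made, and whether the 3 samples of a group came from separate mice or cultures, is not given in the sources used here, so p-values measure the spread between these samples only, which may be technical. The arrays measured RNA of whole cultures, in which fewer cells of a type and less RNA per cell cannot be told apart.

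Promoters of 6 starts are shown as examples. Slc2a1 and Bnip3 are among the 20 members that were higher after LPS in both genotypes. Pfkfb3, Slc16a1 and Adm differed between KO and WT cells after LPS. Pfkfb4, which also differed, and the others of the 20 are not printed. Each line gives the 250 bases before the annotated start, 5′ to 3′ on the gene's own strand, from RefSeq on GRCm38.p6, the genome of another mouse strain (C57BL/6J) than the one used. Capitals mark the core letters bound by HIF, ACGTG or GCGTG, on either strand, so that a match on the other strand reads CACGT or CACGC, and CACGTG is a match on both strands that is also an E-box.
Slc2a1 (chr4:119108495-119108744, + strand): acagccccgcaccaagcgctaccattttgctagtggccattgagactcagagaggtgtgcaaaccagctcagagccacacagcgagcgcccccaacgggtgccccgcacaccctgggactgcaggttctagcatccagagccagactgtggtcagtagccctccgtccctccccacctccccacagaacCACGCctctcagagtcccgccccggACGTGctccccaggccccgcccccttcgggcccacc
Bnip3 (chr7:138909507-138909756, - strand): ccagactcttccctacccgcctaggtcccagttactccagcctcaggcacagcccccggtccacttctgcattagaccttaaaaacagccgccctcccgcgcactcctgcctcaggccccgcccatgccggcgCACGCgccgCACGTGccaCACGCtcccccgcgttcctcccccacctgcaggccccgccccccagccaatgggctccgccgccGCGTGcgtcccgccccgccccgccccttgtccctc
Pfkfb3, start 1 (chr2:11502091-11502340, - strand): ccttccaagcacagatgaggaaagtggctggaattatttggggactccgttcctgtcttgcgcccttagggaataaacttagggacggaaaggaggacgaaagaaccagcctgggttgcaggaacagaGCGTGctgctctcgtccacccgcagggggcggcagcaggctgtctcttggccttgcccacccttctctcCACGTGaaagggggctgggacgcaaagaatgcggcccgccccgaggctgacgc
Pfkfb3, start 2 (chr2:11553930-11554179, - strand): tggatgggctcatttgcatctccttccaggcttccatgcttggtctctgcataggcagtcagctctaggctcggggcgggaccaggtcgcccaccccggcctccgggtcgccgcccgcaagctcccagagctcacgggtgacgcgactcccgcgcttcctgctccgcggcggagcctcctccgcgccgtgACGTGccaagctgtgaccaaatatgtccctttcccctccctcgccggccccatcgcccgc
Slc16a1 (chr3:104638414-104638663, + strand): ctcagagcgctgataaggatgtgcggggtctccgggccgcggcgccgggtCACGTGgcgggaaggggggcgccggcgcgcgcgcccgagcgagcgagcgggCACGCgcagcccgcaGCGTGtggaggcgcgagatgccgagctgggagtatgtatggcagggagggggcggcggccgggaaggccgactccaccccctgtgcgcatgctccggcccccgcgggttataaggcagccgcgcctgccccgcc
Adm (chr7:110627407-110627656, + strand): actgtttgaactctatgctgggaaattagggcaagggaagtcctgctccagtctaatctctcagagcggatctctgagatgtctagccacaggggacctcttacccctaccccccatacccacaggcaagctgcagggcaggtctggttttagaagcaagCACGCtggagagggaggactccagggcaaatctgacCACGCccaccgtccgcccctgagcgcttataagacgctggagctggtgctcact
The E-box form CACGTG stood in the printed promoters of Bnip3, of Slc16a1 and of start 1 of Pfkfb3. Across the members, 28 of the 30 measured members with a promoter entry held at least 1 match in at least 1 entry (93.3%), against 11226 of 27025 genes in the table (41.5%). Tpi1 and Eno2 held none in this window, and Ndrg1 had no entry. The members' promoters were also richer in the pair CG, which both forms of the motif contain: the median was 15 CG pairs in the 250 bases for the measured members and 6 for all genes. The letters are a description of these windows and say nothing of binding.

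**Figure D1:**
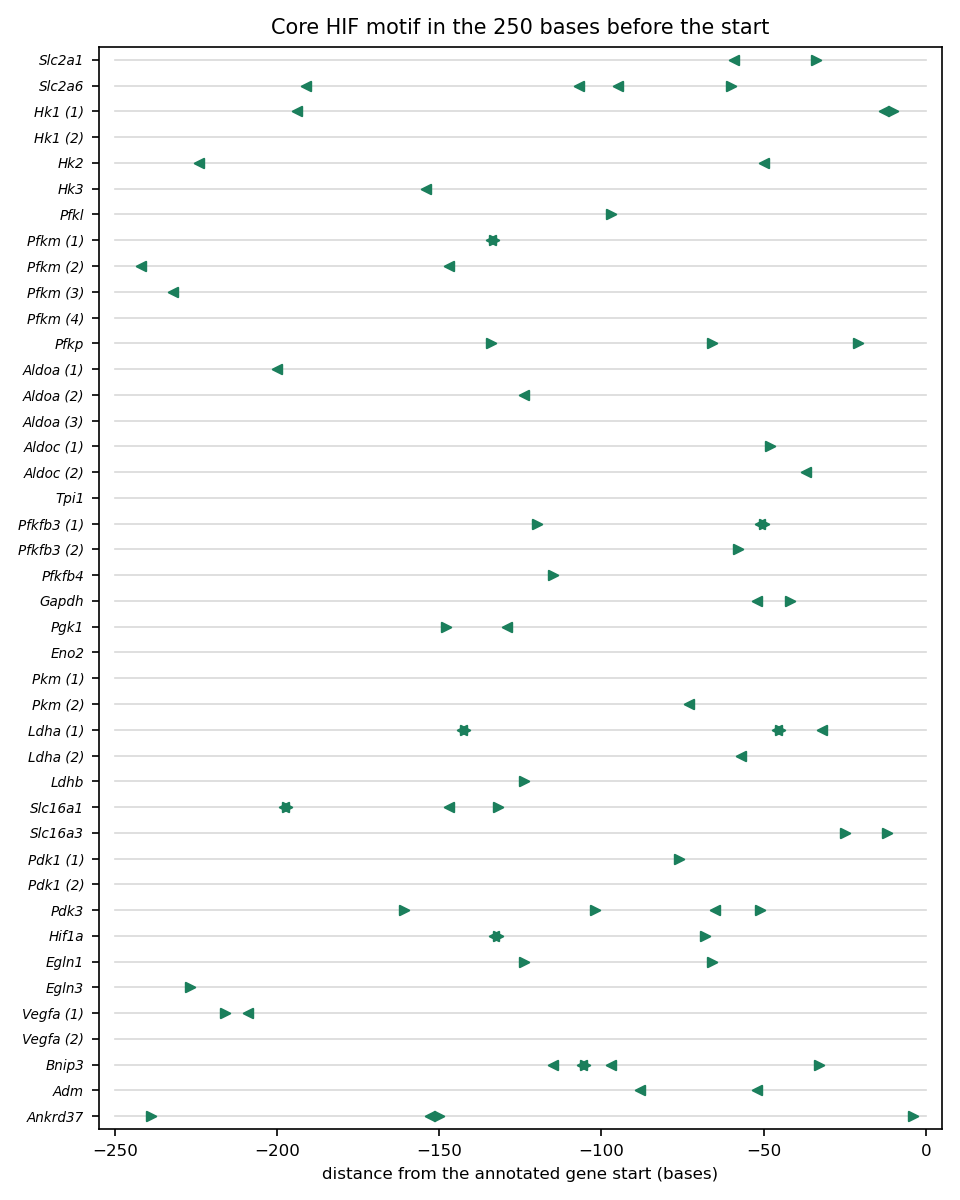
Positions of the core HIF letters in the 250 bases before each annotated start of the measured members. Each grey line is 1 promoter entry, with the entry number in brackets where a gene has several, the x axis is the distance from the start in bases, and triangles pointing right or left are matches on the gene's own or the other strand; 28 of the 30 genes hold at least 1 match.

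The deposited values were linear intensities whose upper quartile ran between 67.0 and 167 over the arrays, and they were brought to a common scale by quantile normalization of log2 values. All levels below are intensities after that step, in arbitrary units, and no gene's level is set against another's. Of the 31 members, 30 were above the level of the nonspecific control probe sets (the 95th percentile of 23 such sets, 13.1 to 23.2 by array) on all 18 arrays, and Adm was above it on 5. Of 6 Klf3 probe sets, 1 read 5.53 to 17.4 on the 9 KO arrays and 129 to 294 on the 9 WT arrays, while another read 165 to 595 on KO and 116 to 325 on WT arrays, and which part of the gene is deleted is not given. Of 10 macrophage markers 9 were above the nonspecific level on all arrays, while all 6 fibroblast and all 3 measured dendritic cell markers were above it on none. Of 4 measured lymphocyte markers Cd3e was above it on 17 arrays and the others on none, and of 2 erythroid markers Klf1 was above it on 3 and Epor on 6 arrays. Members leaned the same way on some arrays: the third KO vehicle array was the highest of its group for 18 of 31 members (40% of all genes), and the first KO 0 h array for 21 (31.1% of all genes), and the LPS results of KO cells are given with and without the third KO vehicle array. In the RNA quality check built into the array, the log2 ratio of the 5′ to the 3′ Gapdh control probe set averaged -0.43 ± 0.05 in KO and -0.36 ± 0.28 in WT cells after LPS, -0.20 ± 0.09 and -0.17 ± 0.08 after vehicle, and 0.09 ± 0.08 and 0.14 ± 0.02 at 0 h (SD, n = 3 each).

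After quantile normalization most of the measured members were higher after LPS in both genotypes, though in WT cells the count depended on the scaling. The members were chosen with earlier results of these data known, and further genes of the pathways, given below, moved in both directions. Against vehicle, 20 of the 31 measured members were higher in KO cells and 24 in WT cells (limma, Benjamini-Hochberg adjusted p under 0.05 over all genes), where 13.9% and 13.7% of all genes were higher and 9.75% in both. The 20 that rose in KO cells also rose in WT cells: the glucose transporters Slc2a1 and Slc2a6, the hexokinases Hk1, Hk2 and Hk3, the glycolytic enzymes Pfkl, Pfkp, Aldoa, Pgk1 and Eno2, the regulatory enzyme Pfkfb3, Ldha, Slc16a3, Pdk1, Hif1a, Egln1, Egln3, Bnip3, Adm and Ankrd37. Lower after LPS were 4 members in KO cells (Pfkm, Ldhb, Slc16a1 and Vegfa) and 1 in WT cells (Vegfa), where 20.6% and 18.7% of all genes were lower. The median log2 difference of the members was 0.82 in KO and 0.86 in WT cells, against -0.03 and -0.01 over all genes.

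**Figure D2:**
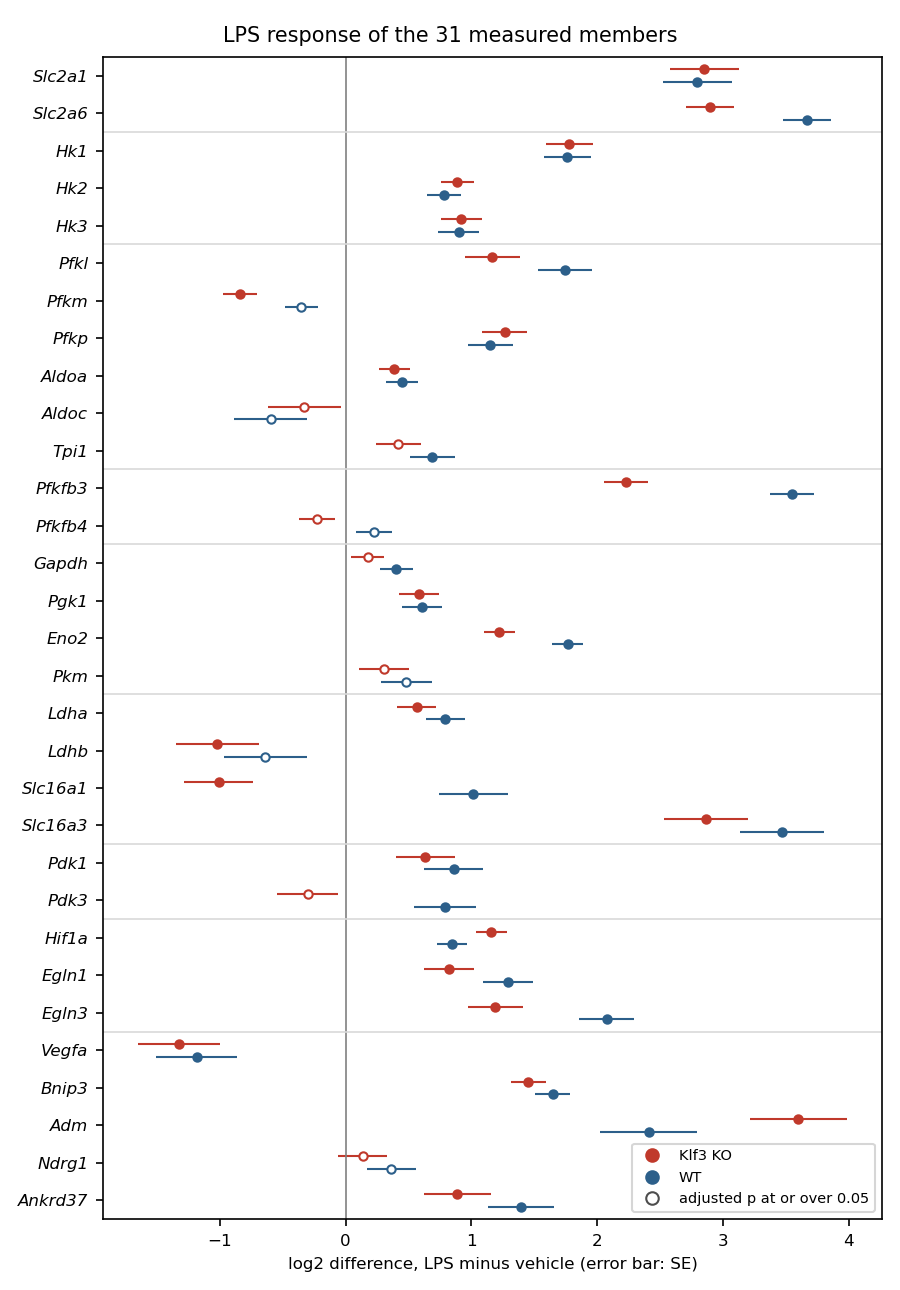
Log2 difference between LPS and vehicle for the 31 measured members, in order of role, in KO cells (red, upper point of each pair) and WT cells (blue); error bars are SE from limma and open points have an adjusted p of 0.05 or more. Points right of 0 are higher after LPS; Slc16a1 lies on opposite sides of 0 in KO and WT cells.

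Limits of these counts lie in the scaling. Without rescaling of the deposited values the WT counts were 15 higher and 4 lower, and with arrays set equal on the hybridisation controls 11 higher and 4 lower, while the KO counts were 21 and 4, and 18 and 4; the median of all genes then moved to -0.44 and -0.43 in WT cells. Of the 24 WT rises, those of Hk2, Hk3, Pfkp, Aldoa, Gapdh, Pgk1, Slc16a1, Pdk1 and Pdk3 did not pass in either setting, and those of Tpi1, Ldha, Hif1a and Ankrd37 did not pass with equal hybridisation controls. Of the 20 KO rises, Pdk1 passed in neither and Aldoa and Ankrd37 not with equal hybridisation controls. Without the third KO vehicle array, 22 members were higher and 4 lower in KO cells, with all 24 calls kept and Tpi1 and Pkm added. The ratio of 5′ to 3′ Gapdh signal also differed between LPS and vehicle arrays, as did the summed level of the 7 measured neutrophil marker genes, at 429 to 609 in KO and 496 to 836 in WT cells after LPS against 78.3 to 84.4 in KO and 75.2 to 106 in WT cells after vehicle. S100a8 was above the nonspecific level on 12 arrays, Camp on 6 and Ngp on 1, and S100a9, Mpo, Elane and Ltf on none. The part of either in the result was not tested. Position codes in the labels, read here as wells of an array plate, put each condition in rows of its own, so that on this reading plate row cannot be told apart from treatment. The count of 4 lower members in KO cells was 2 without KO replicate 2 or KO replicate 3, and the count of 1 in WT cells was 0 without WT replicate 1.

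Glucose uptake showed some of the widest changes. Slc2a1 (GLUT1, the main glucose transporter of most cells) read 3875, 3844 and 3461 on the KO LPS arrays, against 397, 372 and 925 on the KO vehicle arrays. It read 2725, 3053 and 3964 on the WT LPS arrays, against 426, 477 and 483 on the WT vehicle arrays. The LPS and vehicle arrays did not overlap in either genotype, and the KO and WT arrays overlapped after LPS. The log2 difference was 2.85 ± 0.27 in KO cells (SE, limma adjusted p = 3.96e-07) and 2.80 ± 0.27 in WT cells (limma adjusted p = 6.46e-07), 7.22-fold and 6.95-fold. Without the third KO vehicle array, which read highest, the KO difference was 3.27.

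Slc2a6 (GLUT6, a hexose transporter held on internal membranes) read 2350, 2187 and 2316 on the KO LPS arrays, against 351, 374 and 220 on the KO vehicle arrays. On the WT LPS arrays it read 2719, 2147 and 2027, against 173, 195 and 170 on the WT vehicle arrays. The levels after LPS overlapped between genotypes, while every KO vehicle array lay above every WT vehicle array. The log2 difference was 2.90 ± 0.19 in KO (SE, limma adjusted p = 6.61e-09) and 3.67 ± 0.19 in WT cells (limma adjusted p = 5.78e-10). The difference of these responses, KO minus WT, was -0.77 ± 0.27 (adjusted p = 0.233 by limma), and without the third KO vehicle array -1.01 (adjusted p = 0.0466), with a KO response of 2.66.

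The hexokinases trap glucose in the cell by phosphorylating it. Hk1 read 855, 786 and 948 on the KO LPS arrays, against 204, 225 and 343 on the KO vehicle arrays. It read 618, 690 and 838 on the WT LPS arrays, against 194, 237 and 199 on the WT vehicle arrays. No LPS array came near a vehicle array, and the log2 difference was 1.78 ± 0.19 in KO (SE, limma adjusted p = 1.21e-06) and 1.76 ± 0.19 in WT cells (limma adjusted p = 1.73e-06). Without the third KO vehicle array the KO difference of Hk1 was 2.00. Hk2, the hexokinase known for its induction by HIF, rose by 0.89 ± 0.13 in KO and 0.78 ± 0.13 in WT cells on the log2 scale. Hk3, the myeloid hexokinase, rose by 0.92 ± 0.16 in KO and 0.90 ± 0.16 in WT cells. The WT calls of both depended on the scaling: unscaled, Hk2 was 0.42 (limma adjusted p = 0.107) and Hk3 was 0.50 (limma adjusted p = 0.112). Without the third KO vehicle array the KO differences were 0.80 for Hk2 and 1.14 for Hk3. The KO minus WT difference of the response was 0.02 ± 0.26 for Hk1, 0.11 ± 0.19 for Hk2 and 0.02 ± 0.23 for Hk3, and none passed the test.

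Phosphofructokinase, the committed step of glycolysis, is made from 3 subunits that did not move together. The liver type, Pfkl, read 722, 628 and 596 on the KO LPS arrays, against 313, 257 and 296 on the KO vehicle arrays. Pfkl read 777, 1004 and 923 on the WT LPS arrays, against 287, 249 and 267 on the WT vehicle arrays. Every WT LPS array lay above every KO LPS array, but the difference between genotypes after LPS, -0.47 ± 0.22 on the log2 scale, did not pass the test (limma adjusted p = 0.252). The rise over vehicle was 1.17 ± 0.22 in KO (SE, limma adjusted p = 0.000426) and 1.74 ± 0.22 in WT cells (limma adjusted p = 9.8e-06), and 1.19 in KO cells without the third vehicle array.

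The platelet type, Pfkp, read 770, 815 and 756 on the KO LPS arrays, against 314, 256 and 426 on the KO vehicle arrays. Pfkp read 754, 579 and 609 on the WT LPS arrays, against 298, 286 and 285 on the WT vehicle arrays. The groups did not overlap, and the log2 difference was 1.26 ± 0.18 in KO (SE, limma adjusted p = 2.71e-05) and 1.15 ± 0.18 in WT cells (limma adjusted p = 8.17e-05). Unscaled, the WT difference was 0.62 (limma adjusted p = 0.0532), and without the third KO vehicle array the KO difference was 1.46. A dimmer Pfkp probe set was above the nonspecific level on no vehicle array and on 2 of 3 WT LPS arrays. The muscle type, Pfkm, went the other way, by -0.84 ± 0.13 in KO cells (limma adjusted p = 9.06e-05), and by -0.35 ± 0.13 in WT cells, short of the threshold (limma adjusted p = 0.0536).

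Among the other enzymes of upper glycolysis, Aldoa, the main aldolase, was 1.31-fold higher in KO and 1.36-fold higher in WT cells after LPS. Its 4 probe sets all had positive differences, 0.25 to 0.42 in KO and 0.24 to 0.45 in WT cells on the log2 scale, of which 3 passed in KO and 2 in WT cells. The Aldoa calls were lost without KO replicate 1 (0.35, limma adjusted p = 0.129) or 2 (0.34, limma adjusted p = 0.135), and in WT cells without WT replicate 2 (0.42, limma adjusted p = 0.0757) or 3 (0.39, limma adjusted p = 0.105). Tpi1, triosephosphate isomerase, was 1.61-fold higher in WT cells (limma adjusted p = 0.00604) and had a log2 difference of 0.42 ± 0.18 in KO cells (limma adjusted p = 0.0828). Without WT replicate 2 the WT call of Tpi1 was lost (0.49, limma adjusted p = 0.0635). Its second probe set passed in KO cells, at 0.70 ± 0.18 (limma adjusted p = 0.00638), as did the first without the third KO vehicle array, at 0.54 (limma adjusted p = 0.0399). Aldoc, the brain aldolase, did not pass, at -0.33 ± 0.29 in KO and -0.59 ± 0.29 in WT cells.

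Of the enzymes that make and remove fructose-2,6-bisphosphate, the strongest activator of phosphofructokinase, Pfkfb3 rose after LPS and Pfkfb4 did not pass in either genotype. Pfkfb3 favours synthesis of the activator. It read 611, 348 and 450 on the KO LPS arrays, against 93.3, 83.9 and 119 on the KO vehicle arrays. It read 1179, 1076 and 1199 on the WT LPS arrays, against 103, 101 and 91.7 on the WT vehicle arrays. The KO LPS arrays lay between the vehicle arrays and the WT LPS arrays, with no overlap. The rise was 4.68-fold in KO (log2 2.23 ± 0.17, limma adjusted p = 4.23e-08) and 11.7-fold in WT cells (log2 3.55 ± 0.17, limma adjusted p = 2.65e-10), and without the third KO vehicle array the KO difference was 2.37. Pfkfb4 had a log2 difference of -0.23 ± 0.15 in KO and 0.23 ± 0.15 in WT cells.

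The lower steps of glycolysis yield its ATP and pyruvate. Eno2, the neuronal enolase, read 398, 332 and 402 on the KO LPS arrays, against 165, 157 and 161 on the KO vehicle arrays. Eno2 read 421, 502 and 491 on the WT LPS arrays, against 120, 136 and 162 on the WT vehicle arrays. All WT LPS arrays lay above all KO LPS arrays, and the rise over vehicle was 1.22 ± 0.12 in KO (SE, limma adjusted p = 7.04e-07) and 1.77 ± 0.12 in WT cells (limma adjusted p = 1.34e-08), and 1.22 in KO cells also without the third vehicle array. Pgk1, phosphoglycerate kinase, rose by 0.58 ± 0.16 in KO and 0.61 ± 0.16 in WT cells, calls that were lost without KO replicate 1 or 2 (limma adjusted p = 0.0733 and 0.134) and without WT replicate 1 or 2 (limma adjusted p = 0.065 and 0.0526). Its second probe set did not pass in either, at 0.36 ± 0.17 in KO and 0.46 ± 0.17 in WT cells. Gapdh, often taken as a constant reference in expression assays, was 1.32-fold higher in WT cells (limma adjusted p = 0.0248), and its log2 difference of 0.17 ± 0.13 in KO cells did not pass (limma adjusted p = 0.348). The WT call of Gapdh was lost without WT replicate 2 (0.38, limma adjusted p = 0.102) or 3 (0.33, limma adjusted p = 0.188). The array's own Gapdh control probe sets, set beside it after the data were seen, had positive log2 differences from the 3′ end to the 5′ end of 0.38, 0.35 and 0.15 in KO and 0.53, 0.48 and 0.34 in WT cells. Pkm, the pyruvate kinase of most tissues, did not pass, at 0.30 ± 0.20 in KO and 0.48 ± 0.20 in WT cells; without the third KO vehicle array it passed in KO cells, at 0.58 (limma adjusted p = 0.0143), and in WT cells (limma adjusted p = 0.02).

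Lactate is made by lactate dehydrogenase and leaves the cell through monocarboxylate transporters. Ldha, the subunit that favours lactate production, was 1.48-fold higher in KO and 1.73-fold higher in WT cells after LPS, the KO call being lost without KO replicate 2 (log2 0.41, limma adjusted p = 0.139). Ldhb, the subunit that favours the reverse reaction, was lower in KO cells by -1.02 ± 0.33 on the log2 scale (limma adjusted p = 0.0229), which was -0.57 without KO replicate 2 (limma adjusted p = 0.126) and -1.19 without KO replicate 3 (limma adjusted p = 0.0552). Its difference of -0.64 ± 0.33 in WT cells did not pass (limma adjusted p = 0.163), though a second Ldhb probe set did, at -0.84 ± 0.27 (limma adjusted p = 0.0299). The exporter Slc16a3 (MCT4) read 303, 331 and 300 on the KO LPS arrays, against 37.0, 28.4 and 74.0 on the KO vehicle arrays. Slc16a3 read 340, 423 and 452 on the WT LPS arrays, against 44.2, 36.2 and 30.0 on the WT vehicle arrays. The LPS and vehicle arrays did not overlap, at 7.28-fold in KO (log2 2.86 ± 0.34, limma adjusted p = 4.11e-06) and 11.1-fold in WT cells (log2 3.47 ± 0.34, limma adjusted p = 6.3e-07). Without the third KO vehicle array, at 74.0 the brightest of its group, the KO difference was 3.26.

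The related transporter Slc16a1 (MCT1), which carries lactate in either direction, was the 1 member that passed the test in opposite directions. It read 51.4, 20.8 and 35.7 on the KO LPS arrays, against 73.0, 52.7 and 81.1 on the KO vehicle arrays. It read 150, 153 and 86.6 on the WT LPS arrays, against 75.5, 56.7 and 56.3 on the WT vehicle arrays. LPS arrays lay below all vehicle arrays in KO cells and above all vehicle arrays in WT cells. The log2 difference was -1.01 ± 0.28 in KO (SE, limma adjusted p = 0.00844) and 1.02 ± 0.28 in WT cells (limma adjusted p = 0.00866). The WT rise was 0.27 without rescaling (limma adjusted p = 0.468) and 0.81 without WT replicate 2 (limma adjusted p = 0.128), and the KO fall was -0.92 without KO replicate 3 (limma adjusted p = 0.0775) and -0.88 without the third KO vehicle array (limma adjusted p = 0.0397). A second Slc16a1 probe set (mean 5.62) was above the nonspecific level on no array.

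The pyruvate dehydrogenase kinases keep pyruvate out of the mitochondrial citrate cycle. Pdk1, a known HIF target, was 1.55-fold higher in KO (limma adjusted p = 0.046) and 1.81-fold higher in WT cells (limma adjusted p = 0.0089) after LPS. Without KO replicate 2 the KO difference of Pdk1 was 0.32 (limma adjusted p = 0.426) and without KO replicate 1 it was 0.70 (limma adjusted p = 0.101). The KO call was also lost without WT replicate 1 or 3 or the second WT LPS array (limma adjusted p = 0.0604, 0.0521 and 0.051). Neither call of Pdk1 held under another scaling: unscaled the differences were 0.37 in KO (limma adjusted p = 0.259) and 0.11 in WT cells (limma adjusted p = 0.717), and with equal medians both were 0.49 (limma adjusted p = 0.0717 in KO and 0.0722 in WT cells). Its 3 probe sets ranged between 0.20 and 0.87 in KO and between 0.41 and 1.07 in WT cells on the log2 scale. Pdk3 was 1.73-fold higher in WT cells (limma adjusted p = 0.0204), where the first WT LPS array read 208 and the others 120 and 100; without that array the difference was 0.48 on the log2 scale (limma adjusted p = 0.113), and without WT replicate 2 it was 0.81 (limma adjusted p = 0.0568). Unscaled it was 0.07 (limma adjusted p = 0.859). In KO cells Pdk3 did not pass, at -0.30 ± 0.25.

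The oxygen-sensing genes rose in both genotypes. Hif1a was 2.23-fold higher in KO (log2 1.16 ± 0.12, limma adjusted p = 1.29e-06) and 1.80-fold higher in WT cells (log2 0.85 ± 0.12, limma adjusted p = 4.34e-05), the WT value being 0.64 with equal hybridisation controls (limma adjusted p = 0.0921). Egln1 (PHD2), the main hydroxylase that marks Hif1a, was 1.77-fold higher in KO and 2.45-fold higher in WT cells. Egln3 (PHD3), a hydroxylase that is itself induced by HIF, read 320, 275 and 255 on the KO LPS arrays, against 113, 104 and 161 on the KO vehicle arrays. Egln3 read 418, 447 and 456 on the WT LPS arrays, against 102, 90.3 and 123 on the WT vehicle arrays. The KO LPS arrays all lay below the WT LPS arrays and above the vehicle arrays. The rise was 1.19 ± 0.22 in KO (SE, limma adjusted p = 0.00038) and 2.08 ± 0.22 in WT cells (limma adjusted p = 1.67e-06), and 1.38 in KO cells without the third vehicle array.

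The other hypoxia-responsive genes split. Bnip3, a mitochondrial protein of mitophagy, read 3019, 2770 and 2552 on the KO LPS arrays, against 1095, 925 and 1028 on the KO vehicle arrays. Bnip3 read 2607, 3045 and 3150 on the WT LPS arrays, against 899, 866 and 1046 on the WT vehicle arrays. The genotypes overlapped in both conditions, and the rise was 1.45 ± 0.14 in KO (SE, limma adjusted p = 4.12e-07) and 1.65 ± 0.14 in WT cells (limma adjusted p = 1.33e-07), and 1.46 in KO cells without the third vehicle array. Ankrd37, an ankyrin repeat protein known as a HIF target, rose by 0.89 ± 0.26 in KO and 1.40 ± 0.26 in WT cells on the log2 scale, the KO call being lost without KO replicate 1 (0.65, limma adjusted p = 0.149) or 2 (0.95, limma adjusted p = 0.0616). Ndrg1, a stress-induced protein, did not pass, at 0.14 ± 0.20 in KO and 0.36 ± 0.20 in WT cells.

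Vegfa, the angiogenic growth factor, was lower after LPS in both genotypes. It read 117, 66.7 and 108 on the KO LPS arrays, against 341, 250 and 155 on the KO vehicle arrays. It read 155, 127 and 204 on the WT LPS arrays, against 399, 312 and 379 on the WT vehicle arrays. LPS and vehicle arrays did not overlap within a genotype, at -1.32 ± 0.32 in KO (SE, limma adjusted p = 0.00392) and -1.18 ± 0.32 in WT cells (limma adjusted p = 0.00914). The calls rested on single replicates: without KO replicate 2 the KO difference was -1.03 (limma adjusted p = 0.0725), without the third KO vehicle array -1.63 (limma adjusted p = 0.00114), and without WT replicate 1 the WT difference was -1.09 (limma adjusted p = 0.0823). A second Vegfa probe set gave -0.75 ± 0.45 in WT cells (limma adjusted p = 0.268).

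Adm, the vasodilator peptide adrenomedullin, was above the nonspecific level only after LPS. It read 78.7, 106 and 112 on the KO LPS arrays, against 8.20, 8.56 and 7.51 on the KO vehicle arrays. It read 55.3, 13.3 and 59.3 on the WT LPS arrays, against 6.46, 5.65 and 7.96 on the WT vehicle arrays. The second WT LPS array lay under the nonspecific level, so that 2 of 3 WT LPS arrays measured the gene. Because vehicle arrays give only a bound, the rise was at least 6.59-fold in KO (limma adjusted p = 1.41e-06) and at least 2.37-fold in WT cells (limma adjusted p = 0.00011), with each vehicle array taken at the higher of its own value and its nonspecific level.

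**Figure D3:**
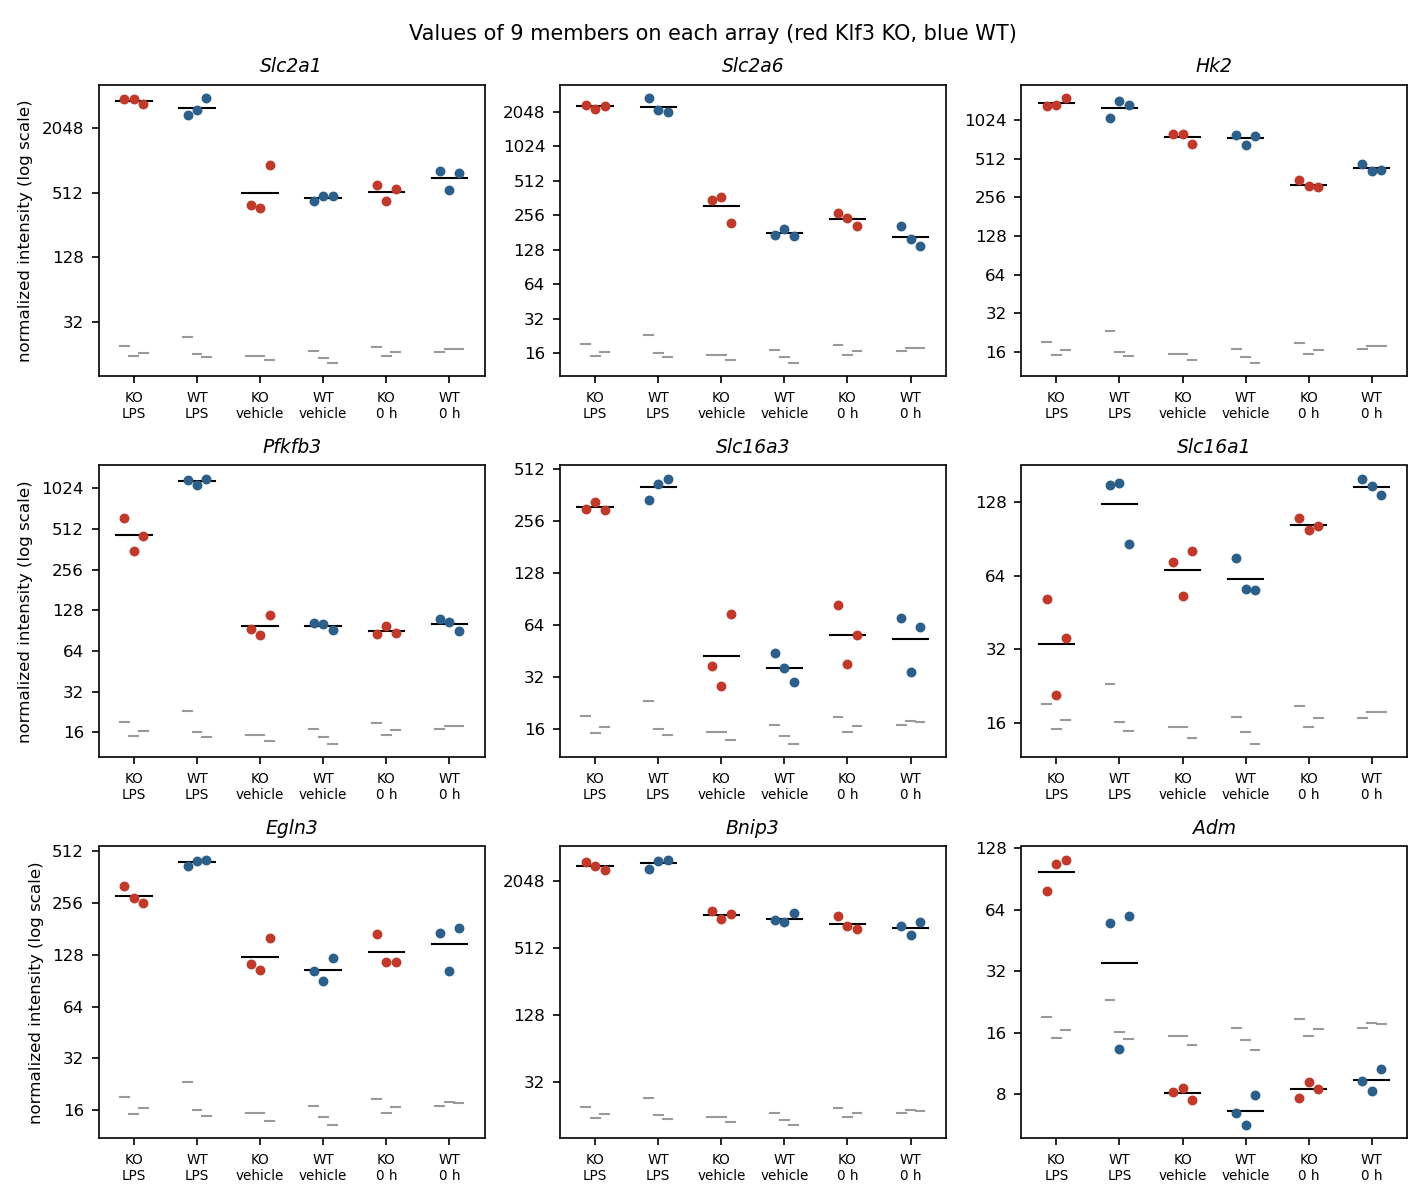
Normalized intensity of 9 members on each of the 18 arrays, on log scales, with KO groups in red and WT groups in blue. Black lines are the geometric mean of the 3 arrays and short grey lines the nonspecific level of each array; Pfkfb3 and Slc16a1 after LPS are lower on all KO than on all WT arrays, and Adm is higher.

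Genotype differences passed the test in 4 members after LPS in the fit over all 18 arrays. With only the KO and WT LPS arrays fitted, none of the 4 passed. After LPS, Slc16a1, Pfkfb3 and Pfkfb4 were lower and Adm higher in KO than in WT cells. These were 4 of 31 members, where 5.97% of all genes differed by limma. At an unadjusted limma p under 0.05 were 12 of the 31 members and 3243 of all 17097 genes. After vehicle limma called none of the 31 members and 0% of all genes, with 1 member and 778 genes at an unadjusted p under 0.05. At 0 h it called none of the members and 0.14% of all genes, with 2 members and 1063 genes at an unadjusted p under 0.05. The LPS response itself differed for 2 members, Slc16a1 and Pfkfb3, where 1.11% of all genes differed. In that test 9 members and 2077 genes had an unadjusted p under 0.05.

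For Slc16a1 the KO minus WT difference after LPS was -1.90 ± 0.28 on the log2 scale (SE, limma adjusted p = 0.000541), 3.74-fold lower in KO cells. With only the KO and WT LPS arrays fitted, its limma adjusted p was 0.0821. The difference of the 2 LPS responses was -2.03 ± 0.39 (limma adjusted p = 0.0152). At 0 h the arrays read 111, 98.9 and 102 in KO and 160, 150 and 137 in WT cells, with no overlap, but the difference of -0.52 ± 0.28 did not pass (limma adjusted p = 0.905). After vehicle the genotypes overlapped, at 0.12 ± 0.28. Pairs of KO and WT arrays whose position codes carry the same number, read as a plate column, differed after LPS by -2.85, -0.75 and -2.10 for numbers 5, 7 and 9.

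For Pfkfb3 the difference after LPS was -1.33 ± 0.17 (SE, limma adjusted p = 0.000238), 2.52-fold lower in KO cells, and the difference of responses was -1.32 ± 0.25 (limma adjusted p = 0.0127). The difference after LPS had a limma adjusted p of 0.0555 with only the KO and WT LPS arrays fitted. The same-column differences after LPS were -1.76, -0.97 and -1.26. Vehicle arrays overlapped between genotypes, at -0.01 ± 0.17, and 0 h arrays at -0.17 ± 0.17. A second Pfkfb3 probe set read 13.1 to 22.2 on the KO LPS arrays and 52.4 to 128 on the WT LPS arrays, and was above the nonspecific level on no vehicle array. It was above that level on 2 of 3 KO and 3 of 3 WT LPS arrays, so that its response over vehicle has no exact value.

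These 2 differences of response kept their direction under every alternative run, but not their call. With arrays set equal on the hybridisation controls they were -1.48 for Slc16a1 (limma adjusted p = 0.147) and -0.93 for Pfkfb3 (limma adjusted p = 0.383). Unscaled they were -1.50 (limma adjusted p = 0.0637) and -0.95 (limma adjusted p = 0.132). With equal array medians Slc16a1 kept its call (-1.77, limma adjusted p = 0.0376) and Pfkfb3 lost it (-1.22, limma adjusted p = 0.0873). Fitted on the compared groups alone, both calls were lost (limma adjusted p = 0.0972 and 0.0724). Without KO replicate 3 they were -1.94 for Slc16a1 (limma adjusted p = 0.0988) and -1.17 for Pfkfb3 (limma adjusted p = 0.0939). The Slc16a1 call was also lost without WT replicate 1 (-2.04, limma adjusted p = 0.0502) or 2 (-1.82, limma adjusted p = 0.156), and the Pfkfb3 call without WT replicate 2 (-1.38, limma adjusted p = 0.0814) or 3 (-1.24, limma adjusted p = 0.0626). Averaged with its second probe set, which was at background, Slc16a1 gave -0.92 (limma adjusted p = 0.0353). Over all alternatives the adjusted p ran between 0.00555 and 0.156 for Slc16a1 and between 0.00367 and 0.383 for Pfkfb3. After LPS the 10 macrophage markers summed to 25060 to 26740 in KO and 30170 to 31810 in WT cells, and their part in these differences was not tested.

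Adm after LPS was 1.48 ± 0.38 higher in KO cells on the log2 scale (SE, limma adjusted p = 0.0314), and every KO LPS array lay above every WT LPS array. The size rests on the second WT LPS array: without it the difference was 0.77 (limma adjusted p = 0.0207), and the same-column differences were 0.94, 0.41 and 3.08 for numbers 5, 7 and 9. Without KO replicate 1, 2 or 3 the call was lost (limma adjusted p = 0.0705, 0.156 and 0.143), as it was with only the KO and WT LPS arrays fitted (limma adjusted p = 0.345). Pfkfb4, which favours removal of fructose-2,6-bisphosphate in some tissues, read 187, 223 and 203 on the KO LPS arrays and 223, 333 and 328 on the WT LPS arrays, so that the highest KO and the lowest WT array were about equal. Its difference of -0.51 ± 0.15 had a limma adjusted p of 0.0497, and the same-column differences were -0.0017, -0.81 and -0.71. Its call was lost without KO replicate 1, 2 or 3 (limma adjusted p = 0.21, 0.119 and 0.157), without WT replicate 2 or 3 (limma adjusted p = 0.195 and 0.166) and without the third KO vehicle array (limma adjusted p = 0.0538). It was -0.18 unscaled (limma adjusted p = 0.599), -0.39 with equal medians (limma adjusted p = 0.215) and -0.13 with equal hybridisation controls (limma adjusted p = 0.796), and was lost with the position number as a block (limma adjusted p = 0.0622). The Pfkfb4 call was also lost with only the KO and WT LPS arrays fitted (limma adjusted p = 0.374).

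Members whose genotype difference had an unadjusted p under 0.05 without passing were mostly lower in KO cells. The balance after LPS depends on the scaling. Of the 31 fitted differences 21 were negative, against 13 unscaled, 19 with equal array medians and 10 with equal hybridisation controls. The median of all genes after LPS then moved to 0.29, 0.07 and 0.34, against -0.02 after quantile normalization. Pdk3 after LPS differed by -0.83 ± 0.25 (limma adjusted p = 0.0583), and passed with dim genes left out, values raised to the nonspecific level, a mean-variance trend or a replicate block (limma adjusted p = 0.0368, 0.0364, 0.0425 and 0.0152). Ldhb differed by -1.01 ± 0.33 (limma adjusted p = 0.0871) and Egln3 by -0.64 ± 0.22 (limma adjusted p = 0.105). With its most variable probe set Egln3 differed by -0.88 (limma adjusted p = 0.0449). Pfkm differed by -0.40 ± 0.13, Eno2 by -0.32 ± 0.12, Pfkl by -0.47 ± 0.22, Egln1 by -0.47 ± 0.20 and Vegfa by -0.75 ± 0.32. In the test of the LPS responses the members short of the threshold were Slc2a6, Pfkm, Pfkfb4, Eno2, Pdk3 and Egln3 with negative values, and Adm, whose vehicle levels were all under the nonspecific level so that the difference of its responses has no exact value. Of the 31 fitted LPS differences 23 were lower in KO than in WT cells, where a larger fall, as for Pfkm, Ldhb and Vegfa, also counts as lower. This balance depends on the scaling: 9 were lower without rescaling, 17 with equal array medians and 8 with equal hybridisation controls. The median of all genes in this comparison then moved to 0.44, 0.17 and 0.46, against -0.02 after quantile normalization. Before LPS the members under an unadjusted p of 0.05 were Slc2a6 after vehicle (0.77 ± 0.19, limma adjusted p = 0.414) and, at 0 h, Slc2a6 (0.53 ± 0.19, limma adjusted p = 0.6) and Hk2 (-0.43 ± 0.13, limma adjusted p = 0.405).

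**Figure D4:**
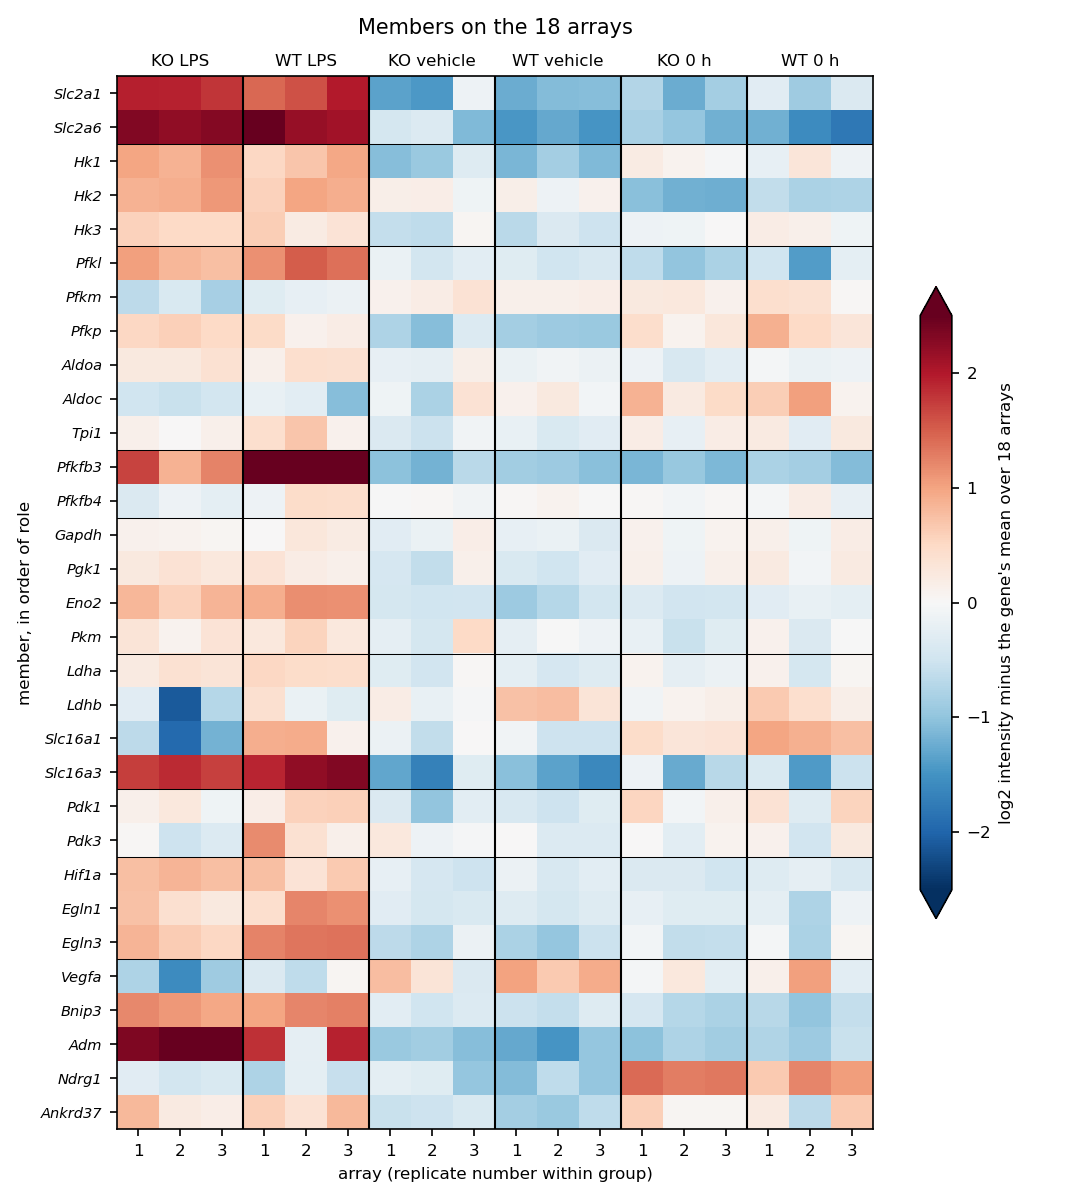
Each measured member on each of the 18 arrays, as log2 intensity minus that gene's mean over all arrays (red above, blue below, colours end at 2.5). Columns are arrays in groups of 3 and rows are members in order of role; the LPS arrays are red for most members, Ndrg1 is red at 0 h, and Slc16a1 after LPS is blue in KO and red in WT columns.

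Vehicle cells at 8 h also differed from the cells at 0 h. Time in culture, the loss of the conditioned medium and plate row, as read from the position codes, cannot be told apart here. Vehicle against 0 h, 1 member was higher and 3 were lower in KO cells, where 6.76% and 5.79% of all genes were higher and lower. In WT cells 1 was higher and 8 lower, where 7.16% and 7.01% of all genes were higher and lower. The log2 ratio of the 5′ to the 3′ Gapdh control, given above, moved between these groups too, and its part was not tested. Ndrg1, Pfkp and Hk1 were lower and Hk2 higher in both genotypes. Ndrg1 read 330, 318 and 202 on the KO vehicle arrays, against 1043, 957 and 977 on the KO 0 h arrays. It read 184, 254 and 201 on the WT vehicle arrays, against 617, 917 and 812 on the WT 0 h arrays. The groups were far apart in both genotypes, at -1.84 ± 0.20 in KO (SE, limma adjusted p = 2.34e-05) and -1.87 ± 0.20 in WT cells (limma adjusted p = 1.84e-05).

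Pfkp fell by 1.00 in KO and 1.46 in WT cells on the log2 scale, and Hk1 fell by 0.86 in KO and 1.03 in WT cells. The KO calls were lost without KO replicate 1 for Pfkp (-0.89, limma adjusted p = 0.051) and without KO replicate 1 or 2 for Hk1 (-0.66 and -0.78, limma adjusted p = 0.148 and 0.0866). Hk2 rose by 1.22 ± 0.13 in KO (limma adjusted p = 2.79e-05) and 0.76 ± 0.13 in WT cells (limma adjusted p = 0.00103). The other members lower in WT cells were Slc16a1 (-1.25 ± 0.28), Ankrd37 (-0.89 ± 0.26), Hk3 (-0.58 ± 0.16), Pgk1 (-0.50 ± 0.16) and Eno2 (-0.46 ± 0.12). The call of Slc16a1 was lost without WT replicate 2 (-1.18, limma adjusted p = 0.0624), and those of Ankrd37, Hk3, Pgk1 and Eno2 were each lost without at least 1 replicate, WT replicate 1 in every case (limma adjusted p = 0.211, 0.189, 0.207 and 0.0997). The difference of the KO and WT changes was tested and passed for none of the 31 members by limma (2 at an unadjusted p under 0.05), nor for any gene (0%; 628 genes at an unadjusted p under 0.05). Without the third KO vehicle array the KO counts were 2 higher and 7 lower, with Hk3, Pgk1, Pdk1 and Aldoc added to the lower and Slc2a6 to the higher members. The KO count of lower members was 1 without KO replicate 1 and 5 without WT replicate 2, and the WT count was 4 without WT replicate 1 or 2 and 5 without WT replicate 3. With equal hybridisation controls Hk2 passed in neither genotype (limma adjusted p = 0.113 in KO and 0.513 in WT cells).

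LPS was also set against 0 h instead of vehicle, a comparison added after the data were seen. Higher than at 0 h were 17 members in KO and 15 in WT cells, where 16.1% and 15.6% of all genes were higher. Lower than at 0 h were 6 in KO and 3 in WT cells, where 21.4% and 19.9% of all genes were lower. A difference from 0 h also holds the 8 h of culture that the vehicle cells shared. The 3 in WT cells were Pfkm, Aldoc and Ndrg1, none of which passed against vehicle in WT cells. In both genotypes 15 members were higher after LPS than after vehicle and higher than at 0 h: Slc2a1, Slc2a6, Hk1, Hk2, Pfkl, Pfkfb3, Aldoa, Eno2, Ldha, Slc16a3, Hif1a, Egln1, Egln3, Bnip3 and Adm. Of all genes, 7.56% passed these 4 calls. Pfkp, Pgk1, Pdk1 and Ankrd37, which rose over vehicle in both genotypes, did not pass against 0 h in either: Pfkp, for example, differed from 0 h by 0.27 ± 0.18 in KO and -0.31 ± 0.18 in WT cells. Slc16a1 was lower than at 0 h in KO cells after LPS (-1.62 ± 0.28, limma adjusted p = 0.000152), and its difference in WT cells was -0.24 ± 0.28 (limma adjusted p = 0.561). Hk2 was 4.31-fold above 0 h in KO and 2.92-fold in WT cells after LPS. Ndrg1 was lower after LPS than at 0 h, by -1.71 ± 0.20 in KO and -1.51 ± 0.20 in WT cells. Among the 15, calls against 0 h were lost in KO cells for Egln1 without KO replicate 1 or 2 and for Ldha without KO replicate 1, 2 or 3, WT replicate 1 or 3 or the second WT LPS array, and in WT cells for Aldoa without WT replicate 2 or 3, for Ldha without WT replicate 2 and for Hk1 without WT replicate 3 (limma adjusted p between 0.0507 and 0.259). Scaling ended more of them: unscaled or with equal hybridisation controls, calls against 0 h were lost for Hk1, Aldoa, Ldha and Egln1 in both genotypes, for Egln3 in KO cells, and for Eno2 and Hif1a in WT cells (unscaled 0.40 and 0.36, limma adjusted p = 0.123 and 0.151). The WT count of lower members was 1 without WT replicate 2. The comparisons against vehicle and against 0 h share their LPS arrays.

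**Figure D5:**
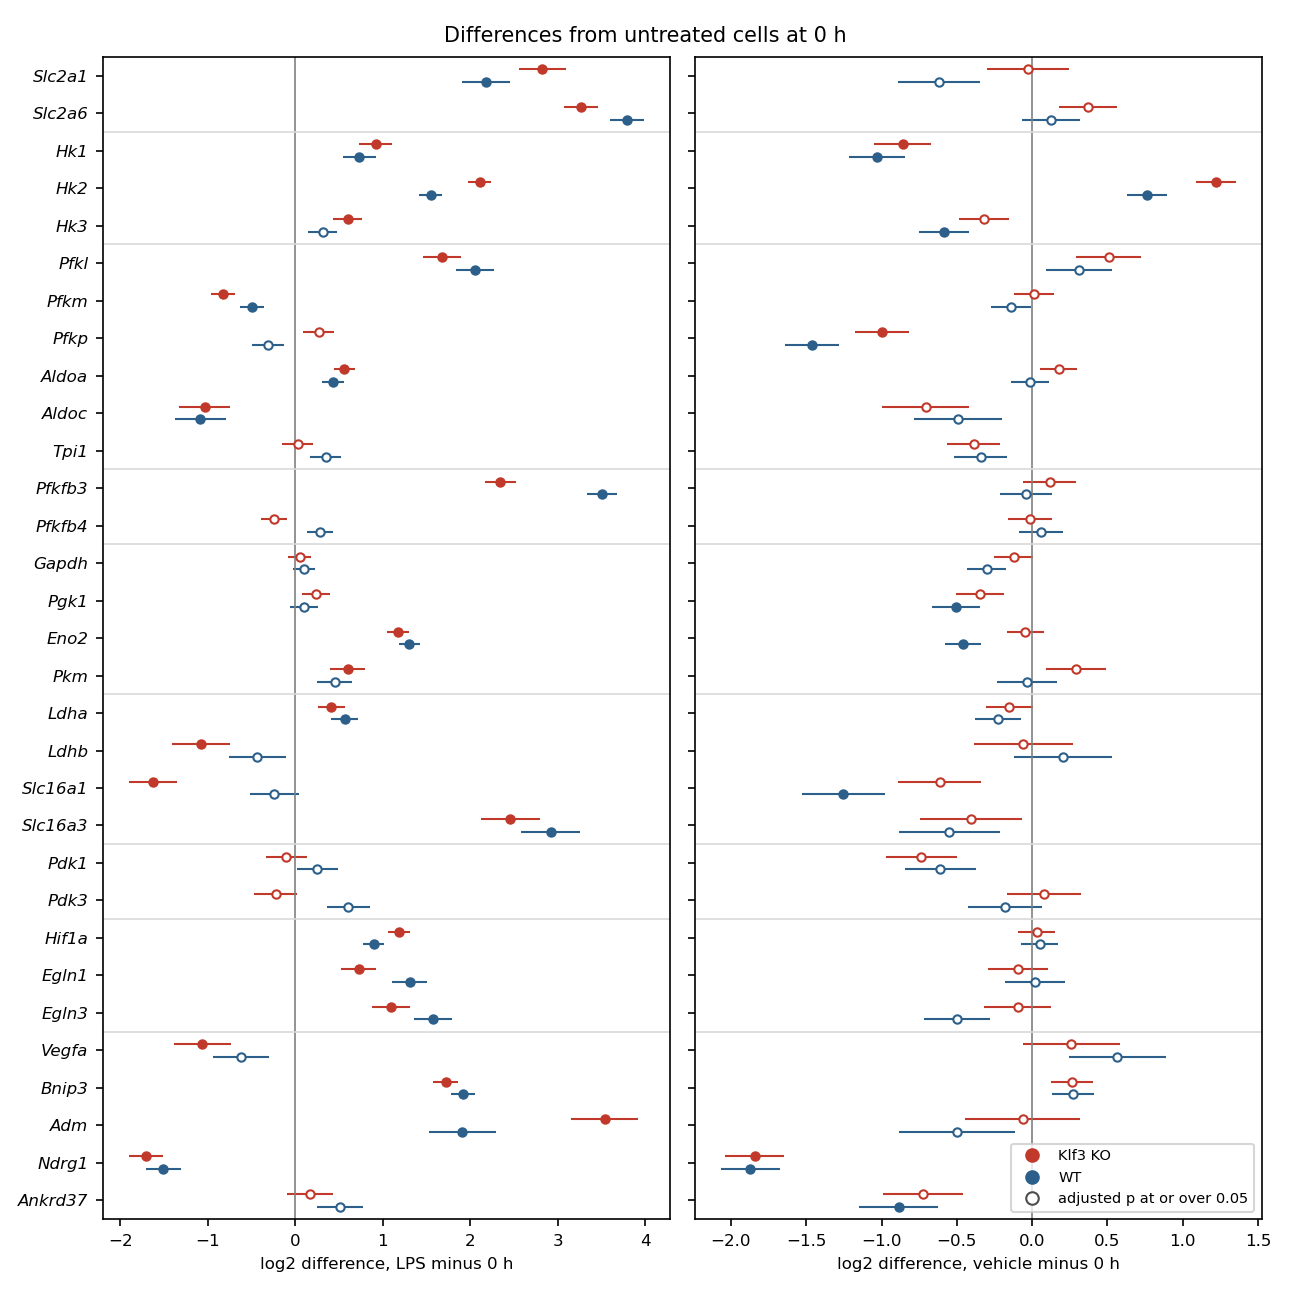
Log2 differences from untreated cells at 0 h for the 31 measured members, LPS minus 0 h on the left and vehicle minus 0 h on the right, in KO cells (red, upper point of each pair) and WT cells (blue); error bars are SE and open points have an adjusted p of 0.05 or more. Ndrg1 is lower than at 0 h in both panels and Hk2 is higher in both.

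Other genes of the same pathways moved in both directions after LPS, and their counts are to be read against the 13.9% higher and 20.6% lower of all genes in KO and the 13.7% and 18.7% in WT cells. Of 32 further genes of glycolysis, glycogen and pyruvate handling 27 were measured, and after LPS 5 were higher and 9 lower in KO cells and 3 higher and 6 lower in WT cells. Gys1, glycogen synthase, was higher by 2.09 in KO and 2.07 in WT cells on the log2 scale, and Pdp1, the phosphatase that reactivates pyruvate dehydrogenase, was lower by -3.13 and -2.35. Slc16a7 (MCT2) was lower in KO (-3.60 ± 0.65, limma adjusted p = 0.000331), where 1 of 3 LPS arrays was under the nonspecific level. In WT cells it read 5.67 to 44.1 after LPS, with only 1 of 3 arrays above that level, against 126 to 152 after vehicle. The size of the fall is therefore not exact in either genotype. The neuronal glucose transporter Slc2a3 (GLUT3) went opposite to Slc2a1: it read 27.9 to 38.4 in KO and 46.4 to 64.5 in WT cells after LPS, against 120 to 170 in KO and 134 to 148 in WT cells after vehicle, and was 0.73 ± 0.15 lower in KO than in WT cells after LPS on the log2 scale (limma adjusted p = 0.00919). Of 15 genes of the pentose phosphate pathway and gluconeogenesis 13 were measured, with 2 higher and 4 lower in KO and 1 higher and 4 lower in WT cells. Pcx, pyruvate carboxylase, was higher after LPS in both genotypes and 0.89 ± 0.24 higher in KO than in WT cells after LPS (limma adjusted p = 0.0376).

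Of 41 further hypoxia pathway genes 37 were measured, and after LPS 14 were higher and 8 lower in KO and 13 higher and 8 lower in WT cells. The collagen cross-linking enzyme Lox was higher by 4.91 ± 0.23 in KO (limma adjusted p = 1.15e-10) and 3.88 ± 0.23 in WT cells (limma adjusted p = 2.17e-09) on the log2 scale, where its KO vehicle arrays read 10.9 to 20.5 and 1 of the 3 was under the nonspecific level, so that the KO value is the less certain. The mitochondrial kinase Ak4 was higher by 4.09 ± 0.43 in KO and 4.38 ± 0.43 in WT cells. Edn1, the vasoconstrictor endothelin-1, was at least 10.2-fold higher in KO and at least 7.42-fold higher in WT cells, since vehicle arrays were all under the nonspecific level. Nos2, inducible nitric oxide synthase, read 100 to 108 in KO and 79.1 to 276 in WT cells after LPS, against 9.34 to 11.3 in KO and 8.84 to 13.5 in WT cells after vehicle. P4ha2, a collagen prolyl hydroxylase, was higher by 2.95 in KO and 3.32 in WT cells, and the RNA-binding protein Zfp36l1 was lower by -3.61 in KO and -3.68 in WT cells. Epas1 (HIF-2 alpha) read 7.32 to 33.1 in KO and 36.0 to 70.8 in WT cells after LPS, against 159 to 298 in KO and 201 to 212 in WT cells after vehicle, opposite to Hif1a. It was 1.54 ± 0.40 lower in KO than in WT cells after LPS (limma adjusted p = 0.0329). Only 2 of 3 KO LPS arrays were above the nonspecific level, so that size is not exact. After LPS the collagen hydroxylase Plod1 was 0.94 ± 0.13 lower (limma adjusted p = 0.000347) and the cyclin Ccng2 0.93 ± 0.23 higher (limma adjusted p = 0.023) in KO than in WT cells. The genotype differences after LPS named in these lists are to be read against the 5.97% of all genes that differed. They were 1 lower of the 27 genes, 1 higher of the 13, and 1 higher and 2 lower of the 37. By limma the LPS response differed between genotypes for 0 of the 27, 13 and 37 genes of these lists. At an unadjusted limma p under 0.05 were 4, 0 and 7 of them, against 2077 of all 17097 genes.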

How the data were processed

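RNA of 18 macrophage samples was hybridised to 1-colour Affymetrix HT MG-430PM arrays. The deposited table holds linear intensity values per probe set, made by the authors with Partek per the submitters' processing notes, version and settings not given in the sources used here. Deposited array medians and quartiles differed, so log2 values were quantile normalized over all 45141 probe sets, with no pseudocount and no filter on dim genes. Probe sets were named from GEO's platform annotation: 28898 had 1 gene symbol, 551 several and 15588 none listed, and 104 were array controls. The brightest single-symbol probe set represented each of 17097 genes. Differences were fitted with limma 3.58.1 in R 4.3.3, with 1 mean per group over all 18 arrays, eBayes, and Benjamini-Hochberg adjustment over all genes in each of 11 comparisons. An adjusted p under 0.05 was called, and all tests were two-sided. The number of arrays limits the precision. The fit was also tested on simulated data that had equal spread in all groups and no differences of scale between arrays. That test therefore does not bear on the limits from scaling or from unequal spread.

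Samples were grouped by their labels. Members, gene lists and marker lists were chosen with earlier results of these data known. Values on every array were given for members with the 10 largest LPS differences in either genotype or past a genotype test, and of the other pathway genes the 6 largest per genotype were named. Genes named outside these rules, the comparisons against 0 h, the Gapdh controls and the omission of single arrays were chosen after values were seen. Alternatives changed the scaling, the treatment of dim genes, the choice of probe set, the blocks, the samples fitted, the variance model and the replicates. Promoters are RefSeq's on GRCm38.p6.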

Additional observations from a re-analysis of the deposited data

Results flagged for a closer look

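The LPS response of Pfkfb3 differed between KO and WT cells by the test of the difference itself, at -1.32 ± 0.25 on the log2 scale (SE, limma adjusted p = 0.0127). It was higher after LPS than after vehicle in both genotypes, by 4.68-fold in KO and 11.7-fold in WT cells. The LPS response of Slc16a1 differed as well, at -2.03 ± 0.39 (SE, limma adjusted p = 0.0152), with a fall in KO and a rise in WT cells. Both calls depended on the processing. That of Pfkfb3 was lost under each other scaling, and that of Slc16a1 unscaled and with equal hybridisation controls (limma adjusted p between 0.0637 and 0.383).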

How the results depend on the processing

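Under 21 alternatives, 1184 recomputed values of the 59 named member differences included 1123 on the same side of the threshold, 61 no longer past it and 0 with the sign turned. These 59 had all passed the threshold in the main fit. For LPS against vehicle or 0 h they were only the 10 largest per genotype, so the tally favours stable calls. Many of the lost calls named above lie outside it, as does that of Hk1 in WT cells against 0 h, whose sign turned. With the deposited values unscaled, 15 members were higher and 4 lower with LPS in WT cells, 0 had a lower LPS response in KO cells, 7 were lower in KO and 0 higher in WT cells with vehicle against 0 h, and 11 were higher in KO and 9 lower in WT cells with LPS against 0 h, where Hk1 in WT cells went to -0.06. With equal medians the WT count lower with LPS was 3, lower responses 1, lower with vehicle in KO cells 7, and lower than at 0 h with LPS in WT cells 6. With equal hybridisation controls the WT counts with LPS were 11 higher and 4 lower, lower responses 0, vehicle counts 0 higher in KO and 0 higher and 5 lower in WT cells, and LPS counts against 0 h 10 higher in KO and 9 higher and 7 lower in WT cells. Leaving out dim genes gave 2 lower with LPS in WT cells and 5 lower in KO than in WT cells after LPS, raising values to the nonspecific level gave 2, and the most variable probe set gave 0 lower in WT cells. Fitted on the compared groups alone, the counts were 2 lower with LPS in KO cells and 0 lower responses. In KO against WT cells after LPS they were then 0 higher and 0 lower. That fit has fewer samples and takes the spread from those groups only, while the main fit pools it over all 18 arrays. The SD of an array's log2 values from its group mean was 0.277 to 0.337 in WT and 0.218 to 0.234 in KO cells after LPS. It was 0.165 to 0.170 in WT and 0.197 to 0.266 in KO cells after vehicle, and 0.171 to 0.199 at 0 h. The cause of the shifts in this paragraph was not tested.

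Same-numbered samples of a genotype deviated together only weakly (correlations -0.046 to 0.144, median 0.04, 2 of 18 over 0.1). For different numbers the correlations were -0.188 to 0.101, median -0.02. The numbers were not taken as pairs. Within a genotype the same sample number also went with the same plate column, as read from the position codes. A replicate block gave 2 members lower with LPS in WT cells and 5 lower with vehicle in KO cells, and kept the calls of Slc16a1 (limma adjusted p = 0.00789) and Pfkfb3 (limma adjusted p = 0.0325). Leaving out a replicate or an array, members lower with LPS numbered 2 to 4 in KO and 0 to 2 in WT cells, lower responses 0 to 3, members higher in KO than in WT cells after LPS 0 to 1, members higher and lower with vehicle in KO cells 1 to 2 and 1 to 7, lower in WT cells 4 to 9, and lower than at 0 h with LPS in WT cells 1 to 4. Signal over background limited Adm, which only 5 arrays measured, and the second probe sets of Pfkfb3 and Slc16a1.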
